A study of Mus musculus with 8 samples.

Results

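The expression of 39 genes that act in the cell division cycle and in DNA replication was examined in mouse quadriceps, out of 47643 genes in the deposited table. They were chosen by name for their function (mitosis, licensing of replication origins and supply of nucleotides), and each name was found in the table. The rule itself uses no measured value, but the members were chosen with earlier results of these data known. Quadriceps RNA was sequenced from C57BL/6 mice (backcrossed to C57BL/6J, per the methods) that lacked the nuclear pore protein Nup210 (Nup210-/-, 4 mice) and from mice with the intact gene (Nup210+/+, 4 mice), with 1 library per mouse. The knockout is present in every tissue, since exon 2 of a floxed Nup210 allele was removed with Hprt-Cre, so that muscle fibers and all other cells of the muscle lack the protein. The age and sex of these 8 mice are not given in the sources used here, and no injury or treatment is given for their muscles. Nup210 itself was at 9.54, 10.79, 11.93 and 8.81 TPM in the 4 libraries labelled Nup210-/- and at 5.71, 10.11, 9.19 and 6.71 TPM in those labelled Nup210+/+. A value for the whole gene does not show whether the deleted exon is present, so the genotypes below are those of the labels. TPM (a share of all transcripts) are divided by transcript length and brought to the same total in each library, so levels can be set beside each other between genes, while the number of reads is unknown.

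A cell that prepares to divide first loads the Mcm helicase onto replication origins, then copies its DNA with the help of the sliding clamp Pcna and a raised supply of deoxynucleotides, and then enters mitosis under cyclin-dependent kinase activity. The mRNAs for replication are induced mainly by E2F factors, while those for mitosis are held down in resting cells by the DREAM complex, which binds CHR elements, and are induced late in the cycle with B-Myb, Foxm1 and the CCAAT-binding factor NF-Y. Adult muscle fibers are postmitotic and satellite cells, the stem cells of muscle, are mostly quiescent, so that dividing cells are rare in unchallenged muscle.

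The promoters of the members hold these elements, and 8 of them are shown here, 6 with a CHR match before the start and 2 Mcm genes with an E2F match, because the members fall into these classes by role. Genes whose nearest CHR match lies after the start, such as Cenpf, Kif23 and Ccnb2, are not shown. The RefSeq promoter table (GRCm38.p6, 250 bases before to 50 bases after an annotated start) matched 34 of 39 members with 35 promoters. It has no entry for Ccna2, Aurkb, Tpx2, Mcm4 or Foxm1. Shown are the 170 bases before the start, 5′ to 3′ on the strand of the gene, with capitals for exact matches to the CHR element, whose letters are TTTGAA. Capitals also mark matches to the NF-Y box, searched as CCAAT. Both were searched on both strands, so that some capitals are the reverse complement of these letters.
Cdk1: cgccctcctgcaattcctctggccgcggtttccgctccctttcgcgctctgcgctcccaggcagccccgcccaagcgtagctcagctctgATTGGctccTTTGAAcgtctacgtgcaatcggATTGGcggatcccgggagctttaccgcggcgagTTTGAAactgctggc
Top2a: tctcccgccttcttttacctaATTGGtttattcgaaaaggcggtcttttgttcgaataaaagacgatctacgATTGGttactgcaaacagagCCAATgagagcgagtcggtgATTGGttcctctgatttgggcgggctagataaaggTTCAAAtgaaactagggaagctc
Mki67: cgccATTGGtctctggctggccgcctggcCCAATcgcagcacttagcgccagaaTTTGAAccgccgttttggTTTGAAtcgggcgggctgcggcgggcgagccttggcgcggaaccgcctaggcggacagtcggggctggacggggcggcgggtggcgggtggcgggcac
Cdc20: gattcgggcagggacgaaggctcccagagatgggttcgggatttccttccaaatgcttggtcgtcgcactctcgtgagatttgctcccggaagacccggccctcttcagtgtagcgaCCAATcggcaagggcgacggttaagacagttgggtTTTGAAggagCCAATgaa
Kif11: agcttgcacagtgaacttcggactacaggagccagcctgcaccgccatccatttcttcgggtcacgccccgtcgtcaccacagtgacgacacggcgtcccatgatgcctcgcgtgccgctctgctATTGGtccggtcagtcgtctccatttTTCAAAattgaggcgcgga
Mcm2: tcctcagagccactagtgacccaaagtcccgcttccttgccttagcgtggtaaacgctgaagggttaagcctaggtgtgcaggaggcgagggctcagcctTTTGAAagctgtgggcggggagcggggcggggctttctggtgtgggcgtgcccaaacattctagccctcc
These stretches lie at chr10:69352913-69353082 (reverse strand), chr11:99024190-99024359 (reverse), chr7:135716380-135716549 (reverse), chr4:118437344-118437513 (reverse), chr19:37376212-37376381 (forward) and chr6:88898781-88898950 (reverse). For a pair of helicase genes, capitals mark CCAAT and exact matches to an E2F site, searched as TTTCCCGC or TTTGGCGC on both strands.
Mcm6: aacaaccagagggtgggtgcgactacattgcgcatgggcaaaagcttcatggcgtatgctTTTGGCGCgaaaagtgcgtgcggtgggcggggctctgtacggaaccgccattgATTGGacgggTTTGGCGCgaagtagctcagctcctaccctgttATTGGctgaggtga
Mcm5: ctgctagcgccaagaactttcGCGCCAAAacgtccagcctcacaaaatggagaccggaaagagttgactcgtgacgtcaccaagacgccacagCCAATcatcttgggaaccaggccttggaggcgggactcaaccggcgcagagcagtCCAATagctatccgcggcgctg
The Mcm6 stretch is chr1:128359706-128359875 (reverse strand) and that of Mcm5 is chr8:75109339-75109508 (forward).

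The 2 kinds of element were divided between the roles of the members. CHR matches were present in 14 of the 20 cell division genes with a promoter (cyclins, kinases, spindle, kinetochore and checkpoint genes) and in 2 of the 14 genes for replication, nucleotides and transcription factors, namely Mcm2 and Cdc45. E2F matches were present in 0 of those 20 and in 6 of those 14, which were Mcm3, Mcm5, Mcm6, Mcm7, Cdt1 and Cdc6. CCAAT was found in 16 of 20 and in 9 of 14. Over all 32851 promoters of the table, 17.9% held a CHR match, 37.4% a CCAAT match and 1.56% an E2F match, against 45.7%, 74.3% and 17.1% of the 35 member promoters. Both CHR and CCAAT were present in 42.9% of the member promoters and in 6.95% of all promoters. A CHR match within 50 bases of the start was found in 14 members and in 4.94% of all promoters. No matches of different motifs overlapped each other in the members. These are matches of letters in a window and not measured binding, and the shares are given as a description.

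**Figure D1:**
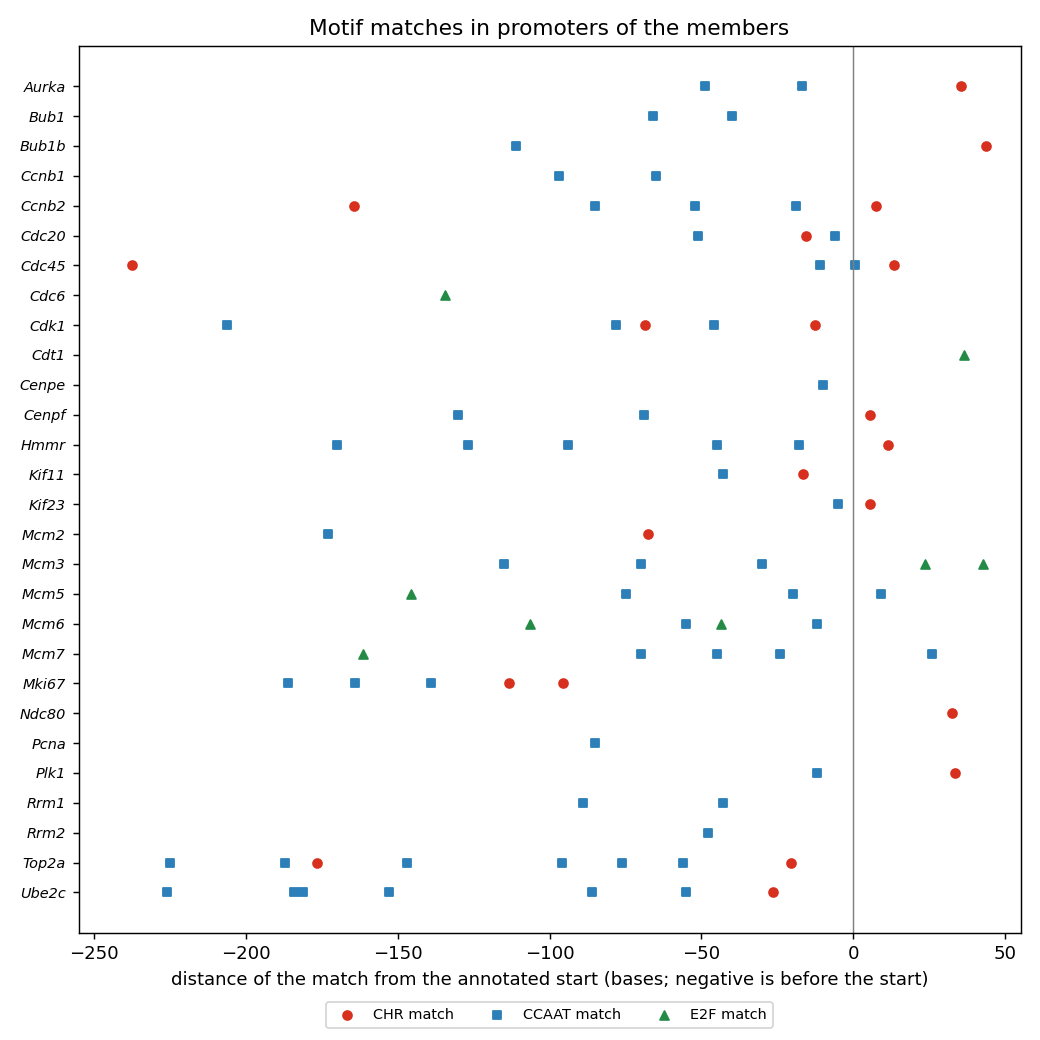
Exact motif matches in the promoters of the members that have at least 1, with the distance of the match from the annotated start in bases on the x axis (negative is before the start) and 1 gene per line. CHR matches (circles) stand in cell division genes and in Mcm2 and Cdc45, E2F matches (triangles) stand in Mcm3, Mcm5, Mcm6, Mcm7, Cdc6 and Cdt1, and CCAAT matches (squares) stand in both.

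One library stood apart from the other 7, and it did so in the genes described here. The summed TPM of the 39 members were 97.27, 99.87, 100.4 and 99.11 in Nup210-/- replicates 1 to 4, and 104.01, 316.2, 114.3 and 102.52 in Nup210+/+ replicates 1 to 4. Nup210+/+ replicate 2 was thus far above the rest. It had the highest TPM for 38 of 39 members (the exception was Cenpf, highest in Nup210+/+ replicate 1). For 28 of the 39 its TPM was over 2 times that of every other library, and no other library reached this for any member. Among members that averaged 0.5 TPM or more in the other 7 libraries it was 10 of 19, against 1.55% of all such genes. Relative to the median of the other 7 libraries, its TPM was between 1.33 times (Ube2c) and 120 times (Bub1) as high. The median was 7.69 times over the 39 members and 1.05 times over the 14229 genes that averaged 0.5 TPM or more. These sets are unlike, since the 39 include 9 members below that minimum. The 4 libraries of Nup210-/- mice and the remaining 3 of Nup210+/+ mice were close to each other in the summed level. The deposited sums of the 2 genotypes did not overlap, even without that library, but after scaling of the libraries (below) they were 99.98 to 105.9 in Nup210-/- and 101.21 to 107.43 in Nup210+/+ replicates 1, 3 and 4, and did overlap.

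**Figure D2:**
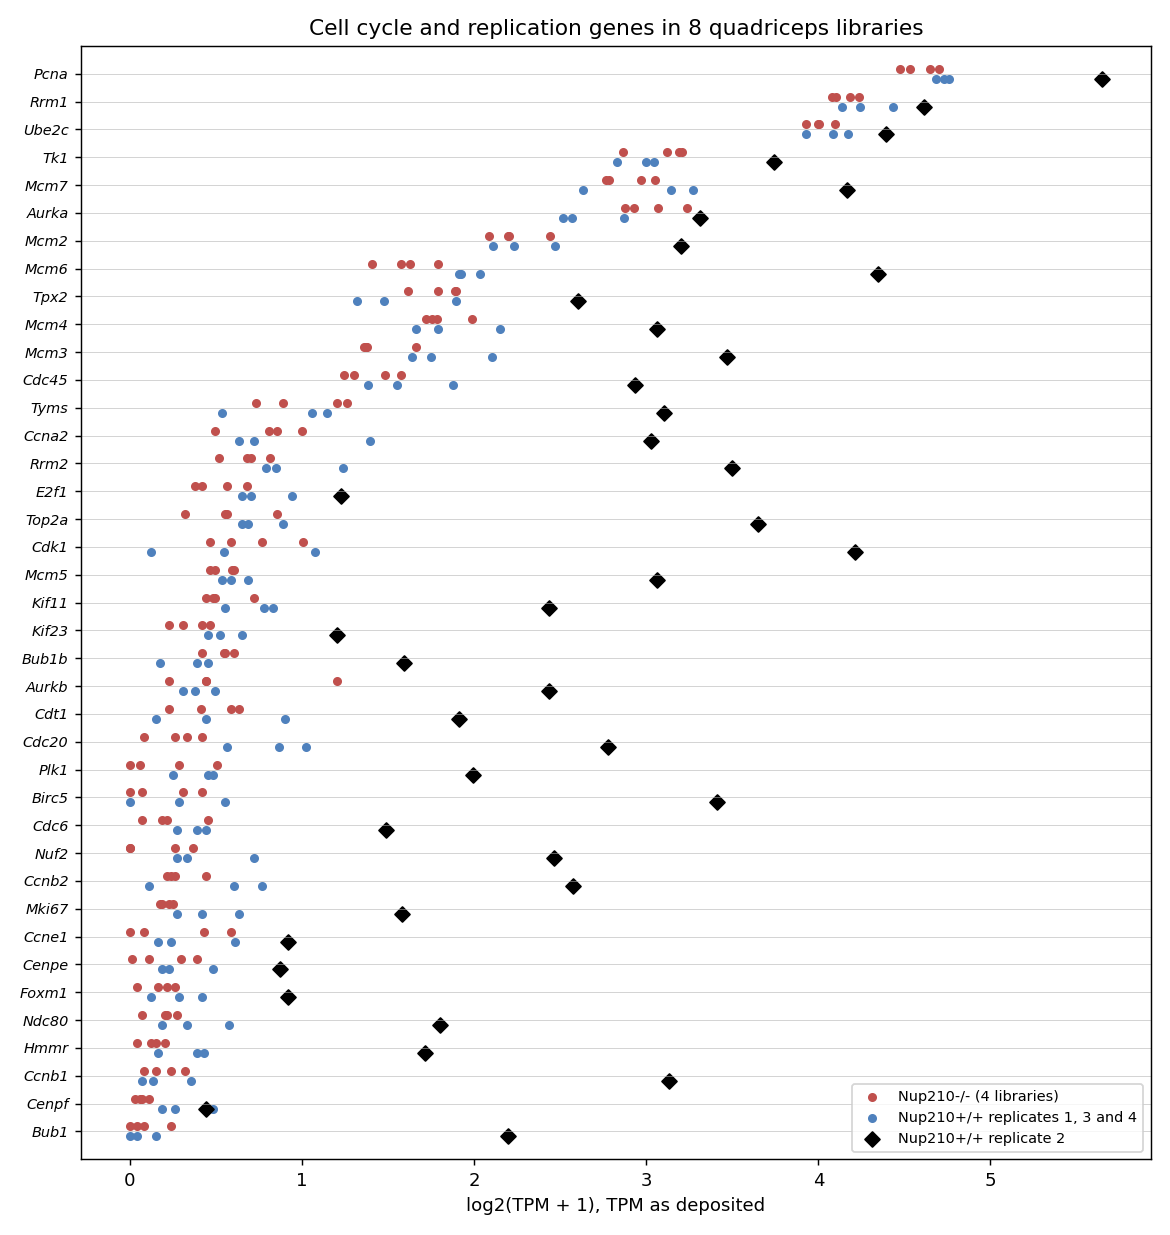
Level of each member in each of the 8 libraries as log2(TPM + 1), with TPM as deposited. Genes are ordered by the median TPM of the 7 libraries other than Nup210+/+ replicate 2. Red points are the 4 Nup210-/- libraries, blue points Nup210+/+ replicates 1, 3 and 4, and black diamonds Nup210+/+ replicate 2, which is the rightmost point for 38 of 39 genes.

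The same library also held mRNAs of immature blood cells. Granulocyte precursors were followed by the granule enzymes Ctsg, Elane, Mpo and Prtn3, the maturation factor Cebpe and the progenitor marker Ms4a3. These 6 genes summed to 381.69 TPM in Nup210+/+ replicate 2 and to between 0.31 and 2.12 TPM in the other 7. All 6 were highest in that library and over 2 times every other one. Elane was at 116.69 TPM there and at most 0.53 TPM elsewhere. Maturing and mature granulocyte genes summed to 24.18 TPM against 3.32 to 6.45 TPM, mainly from S100a8 (8.03 TPM) and S100a9 (7.98 TPM). Of these 11 genes, 8 were highest in that library, while Mmp9, Csf3r and Retnlg were not. Red cell precursor genes summed to 99.61 TPM against 53.12 to 73.32 TPM, most of it from the transferrin receptor Tfrc (79.53 TPM against 48.91 to 60.9 TPM). T cell genes summed to 3.27 TPM against 0.53 to 2.3 TPM, mainly from Lck (1.75 TPM) and Cd4 (0.95 TPM), the 2 of 8 that were highest there, while Cd3d, Cd8a, Cd8b1 and Ptcra were at 0 in that library. The sums of the remaining lists did not set this library apart. Satellite cell and myoblast genes summed to 40.68 TPM against 33.07 to 41.62 TPM, with the satellite cell factor Pax7 at 0.86 TPM against 0.51 to 1.04 TPM. Endothelial genes summed to 86.59 TPM against 81.63 to 103.75 TPM, and fibroblast genes to 839.38 TPM against 603.8 to 1205.88 TPM. B cell precursor genes summed to 8.17 TPM against 5 to 10.82 TPM, most of it from Ebf1 (5.34 TPM against 4.61 to 10.09 TPM). Of these 10 genes, 3 were highest in that library and 2 were over 2 times every other one. Among them Cd79b was at 1.69 TPM against at most 0.41 TPM, while the recombinase genes Rag1 and Rag2 were at 0 in each library. Muscle fiber genes summed to 104248.52 TPM, within the 99331.27 to 115376.55 TPM of the other libraries. The part of blood cell precursors in the levels of the cell cycle genes was not tested, and in bulk RNA more cells of a type and more RNA per cell cannot be told apart.

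**Figure D3:**
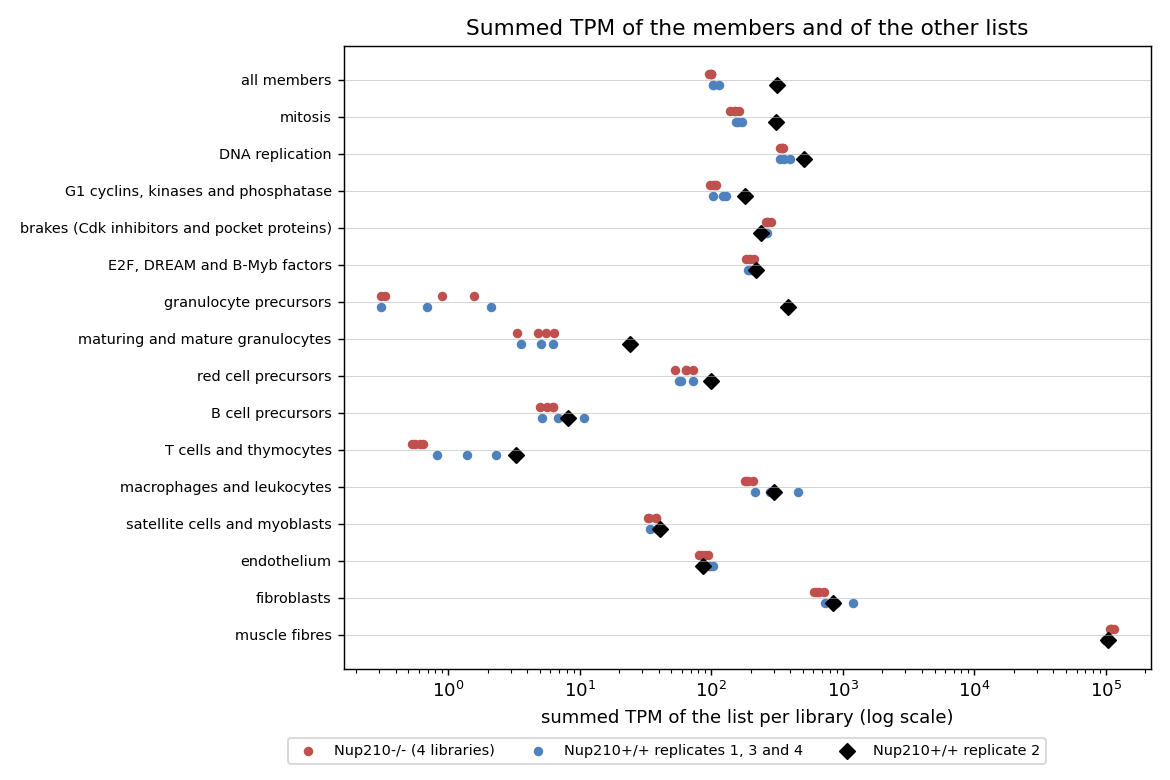
Summed TPM per library, on a log scale, of the 39 members, of 5 lists of other cell cycle genes and of 10 lists of cell type markers. Nup210+/+ replicate 2 (black diamonds) is at 316.2 TPM for the members and 381.69 TPM for granulocyte precursors, and lies among the other 7 libraries for satellite cells, endothelium, fibroblasts and muscle fibers.

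Genotypes were compared on log2(TPM + 1) after scaling of each library by its median ratio to a common reference, with limma and Benjamini-Hochberg adjustment over the 14229 genes whose TPM averaged 0.5 or more. Fold changes are Nup210-/- minus Nup210+/+ on this scale, which understates the change of genes at low TPM. Of the 39 members, 30 reached the minimum and 9 did not (Mki67, Hmmr, Ndc80, Kif23, Cenpe, Cenpf, Cdc6, Ccne1 and Foxm1). Only 19 of the 30 still reached it without Nup210+/+ replicate 2, so 11 were tested because of that library. No member passed an adjusted p of 0.05 (0 of 30, against 0.112% of all genes), and the smallest adjusted p was 0.33 (limma), for Cdc20. At an unadjusted p below 0.05 there was 1 member, lower in Nup210-/-, against 7.18% of all genes that were lower at that level. The estimates were lower in Nup210-/- for 27 members and higher for 3, with a median of -0.48 against -0.01 for all genes. Without Nup210+/+ replicate 2, again 0 of the 19 members passed (0.0142% of all genes did), the smallest adjusted p being 0.14 (limma), for Aurka, which was also the 1 member at an unadjusted p below 0.05. The estimates were then lower for 11 and higher for 8, and their median was -0.04 against 0.00 for all genes. Among those same 19 members, 16 had been lower with all libraries, with a median of -0.33.

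**Figure D4:**
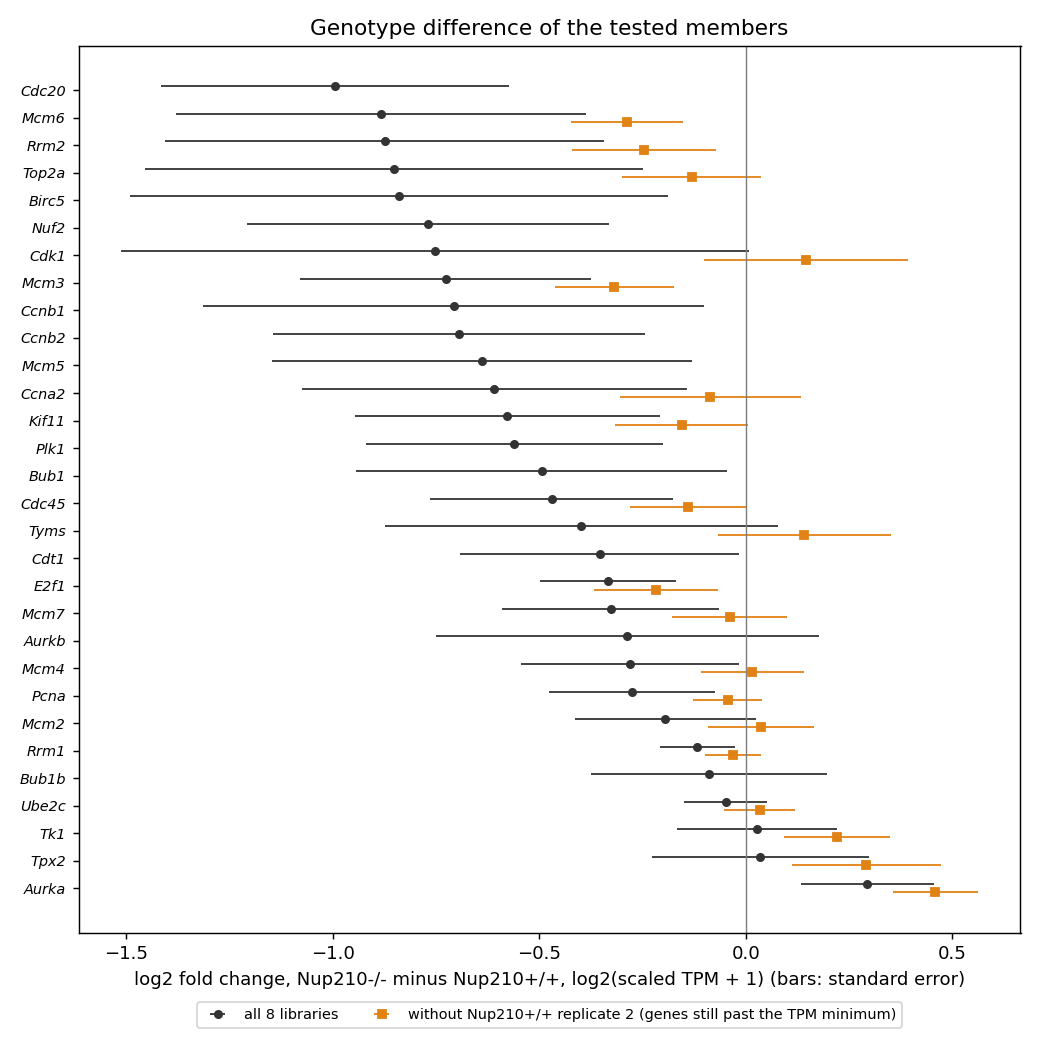
Log2 fold change of the 30 tested members, Nup210-/- minus Nup210+/+, with standard errors as bars. Dark points are from all 8 libraries (27 of 30 below 0) and orange squares from the 7 libraries without Nup210+/+ replicate 2 (11 of 19 below 0), given for genes that still reach the TPM minimum.

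Whether the libraries of the genotypes overlapped was also examined for each gene on scaled TPM, members below the minimum included. With all libraries, 3 members lay lower in each Nup210-/- library than in any Nup210+/+ library (Mki67, Cdc20 and Cenpf) and 0 lay higher. Among tested members it was 1 lower (Cdc20), against 4.60% of tested genes, and 0 higher, against 4.78%. Without Nup210+/+ replicate 2, the same 3 were lower, and Aurka and Bub1b were higher throughout in Nup210-/-. Of the 19 members that then reached the minimum, 0 were lower, against 6.56% of all genes that reached it, and 1 (Aurka) was higher, against 6.54%. No such share is given for genes below the minimum. The counts that include members below it therefore cannot be read as a result about the members.

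Mki67, the nuclear antigen Ki-67 that coats mitotic chromosomes and marks cycling cells, was at 0.14, 0.13, 0.19 and 0.17 TPM in Nup210-/- and at 0.21, 1.99, 0.34 and 0.55 TPM in Nup210+/+ (means 0.158 ± 0.0275 and 0.773 ± 0.824 TPM, SD, n = 4 each). All of these levels were low, and the genotypes did not overlap with or without the high library, the other 3 Nup210+/+ libraries averaging 0.367 ± 0.172 TPM (SD, n = 3). A complete separation of 4 against 4 fixes the two-sided exact permutation p at 0.0286, the smallest that the 70 labelings allow, so for Mki67, Cenpf and Cdc20 that p restates the separation and adds nothing to it. Mki67 (ENSMUSG00000031004) lies at chr7:135689784-135716361 on the reverse strand. Cenpf, a large kinetochore and nuclear matrix protein of late cycle cells, was at 0.02, 0.04, 0.05 and 0.08 TPM in Nup210-/- and at 0.40, 0.36, 0.20 and 0.14 TPM in Nup210+/+. It was the one member in which Nup210+/+ replicate 2 was not the highest. Cdc20, the activator of the anaphase-promoting complex, was at 0.26, 0.34, 0.06 and 0.20 TPM in Nup210-/- and at 0.48, 5.86, 1.03 and 0.82 TPM in Nup210+/+. Its log2 fold change was -0.995 ± 0.421 (SE, limma adjusted p = 0.33). Without Nup210+/+ replicate 2 its genotypes still did not overlap, but its mean TPM was under the minimum. The exons of Cdc20 share 2.84% of their bases with Elovl1 on the opposite strand.

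Markers of some other cells, apart from the blood precursors above, were also lower in Nup210-/-. The highest Nup210+/+ library was replicate 3 for the macrophage and fibroblast sums. It was replicate 2 for the T cell sum, Mki67 and Cdc20, and replicate 1 for Cenpf. Whether these levels vary together between libraries was not tested. Genes of macrophages and other leukocytes summed to between 182.17 and 207.88 TPM in Nup210-/- and to between 216.82 and 456.62 TPM in Nup210+/+, and 8 of 10 of them did not overlap between genotypes, each lower in Nup210-/- (4.60% of all tested genes were). T cell genes summed to 0.53 to 0.65 TPM in Nup210-/- and to 0.82 to 3.27 TPM in Nup210+/+, sums of values near 0. Only 1 of these 8 genes (Lck) reached the TPM minimum. Its genotypes overlapped, at 0 to 0.31 TPM in Nup210-/- and 0.27 to 1.75 TPM in Nup210+/+. Fibroblast genes summed to 603.8 to 720.32 TPM and to 730.05 to 1205.88 TPM, with 1 of 6 genes without overlap, lower in Nup210-/-. In each of these lists the sums of the genotypes as deposited did not overlap, with or without Nup210+/+ replicate 2. The reverse held for muscle fiber genes as deposited, at 107808.18 to 115376.55 TPM in Nup210-/- and 99331.27 to 106379.68 TPM in Nup210+/+. These sums were not scaled, and scaling removed such a separation for the summed members above. On scaled TPM, 2 of the 11 muscle fiber genes did not overlap, both higher in Nup210-/- (4.78% of all tested genes were). The part of these cells in the levels of Mki67, Cenpf and Cdc20 was not tested.

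Among the cyclins and their kinase, Cdk1, the kinase that drives entry into mitosis, was at 1.01, 0.50, 0.70 and 0.38 TPM in Nup210-/- and at 1.11, 17.58, 0.09 and 0.46 TPM in Nup210+/+. Nup210+/+ replicate 2 was thus the highest and Nup210+/+ replicate 3 the lowest of all libraries. The log2 fold change was -0.75 (limma adjusted p = 0.68) and turned to 0.14 without the high library. Ccna2, cyclin A of S phase and early mitosis, was at 0.41, 0.75, 1.00 and 0.81 TPM in Nup210-/- and at 1.63, 7.15, 0.65 and 0.55 TPM in Nup210+/+. The spread of the other 7 libraries covered both genotypes, and the log2 fold change of -0.61 (limma adjusted p = 0.58) became -0.09 without the high library. Ccna2 shares 12.5% of its exon bases with Exosc9 on the opposite strand, a gene at 16.23 to 23.93 TPM. The mitotic cyclins Ccnb1 and Ccnb2 were at 7.76 and 4.96 TPM in Nup210+/+ replicate 2 and at most 0.28 and 0.70 TPM elsewhere. Ccne1, the cyclin of the G1 to S transition, was at 0.35, 0, 0.06 and 0.50 TPM in Nup210-/- and at 0.12, 0.89, 0.53 and 0.18 TPM in Nup210+/+, and in this gene the high library was not far from the rest.

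Top2a, the topoisomerase that disentangles sister chromatids, showed the same pattern with 0.25, 0.81, 0.48 and 0.47 TPM in Nup210-/- and 0.57, 11.53, 0.85 and 0.61 TPM in Nup210+/+. Its log2 fold change of -0.85 ± 0.60 (SE, limma adjusted p = 0.54) became -0.13 ± 0.17 without the high library. Of the mitotic kinases and the chromosomal passenger complex, Aurkb, the kinase of that complex, was at 1.3, 0.17, 0.36 and 0.36 TPM in Nup210-/- and at 0.30, 4.41, 0.41 and 0.24 TPM in Nup210+/+. Nup210-/- replicate 1 was the highest library after Nup210+/+ replicate 2. Birc5 (survivin), its partner, was at 0.05, 0.34, 0.24 and 0 TPM in Nup210-/- and at 0, 9.65, 0.47 and 0.22 TPM in Nup210+/+. Plk1, the kinase of spindle assembly and cytokinesis, was at 0.04, 0, 0.42 and 0.22 TPM in Nup210-/- and at 0.19, 2.98, 0.40 and 0.37 TPM in Nup210+/+. All 3 were below the TPM minimum without the high library.

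Aurka, the kinase of centrosomes and spindle poles, differed from the other mitotic kinases in level and in pattern. It was at 6.62, 7.40, 8.44 and 6.35 TPM in Nup210-/- and at 4.72, 8.93, 6.33 and 4.93 TPM in Nup210+/+. With all libraries the genotypes overlapped, and the log2 fold change was 0.29 ± 0.16 (SE, limma adjusted p = 0.43). Without Nup210+/+ replicate 2 each Nup210-/- library was above each Nup210+/+ library on scaled TPM, with a log2 fold change of 0.46 ± 0.10 (SE, unadjusted p = 0.0020, adjusted p = 0.14, limma), which did not pass the threshold. Aurka (ENSMUSG00000027496) lies at chr2:172356190-172370535 on the reverse strand.

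The spindle checkpoint and anaphase-promoting complex genes included the highest and the lowest ratio of the high library to the median of the others (Bub1 and Ube2c). Bub1, a checkpoint kinase of the kinetochore, was at 0, 0.18, 0.06 and 0.03 TPM in Nup210-/- and at 0.11, 3.59, 0 and 0.03 TPM in Nup210+/+, where the ratio rests on a median of 0.03 TPM. Bub1b, which encodes the checkpoint protein BubR1, was at 0.46, 0.52, 0.34 and 0.47 TPM in Nup210-/- and at 0.13, 2.02, 0.37 and 0.31 TPM in Nup210+/+. Its genotypes overlapped with all libraries (exact permutation p = 1) and did not on scaled TPM without the high one. Ube2c, the ubiquitin-conjugating enzyme of the same complex, was at 15.03, 16.14, 14.22 and 14.98 TPM in Nup210-/- and at 14.25, 20.02, 17.03 and 15.97 TPM in Nup210+/+. This level was above that of the other mitotic members in each library and varied little between libraries. In the list of other mitosis genes, Pttg1 was higher (80.83 to 99.61 TPM) and Ckap5 was at a similar level (12.39 to 16.37 TPM). Of the exon bases of Ube2c, 22.8% are shared with Tnnc2 on the opposite strand, the fast-fiber troponin C gene at 10129.14 to 11798.27 TPM. The libraries were directional, but the strand setting of the quantification is not given in the sources used here, and the part of Tnnc2 in the Ube2c value was not tested. Exons of 9 members overlap another gene in GENCODE M21, 7 of them a protein-coding one and 6 of them one on the opposite strand.

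In the spindle and kinetochore groups, Tpx2, which activates Aurka and nucleates spindle microtubules, was at 2.72, 2.06, 2.7 and 2.46 TPM in Nup210-/- and at 1.78, 5.09, 1.5 and 2.72 TPM in Nup210+/+. Its log2 fold change was 0.03 with all libraries and 0.29 without the high one. Kif11, the motor that separates spindle poles, was at 0.36, 0.41, 0.40 and 0.65 TPM in Nup210-/- and at 0.78, 4.40, 0.47 and 0.72 TPM in Nup210+/+, and its log2 fold change went from -0.58 to -0.16 when that library was left out. Neither passed the test. Hmmr, a microtubule-binding spindle protein, was at 0.09, 0.15, 0.11 and 0.03 TPM in Nup210-/- and at 0.12, 2.28, 0.31 and 0.35 TPM in Nup210+/+ (exact permutation p = 0.0571). Kif23, the motor of the central spindle, was at 0.24, 0.17, 0.38 and 0.34 TPM in Nup210-/- and at 0.44, 1.3, 0.37 and 0.57 TPM in Nup210+/+. For both genes 1 Nup210+/+ library fell within the Nup210-/- range. Nuf2 and Ndc80 encode subunits of the complex that ties kinetochores to microtubules. Nuf2 was at 0.20, 0, 0 and 0.29 TPM in Nup210-/- and at 0.26, 4.52, 0.21 and 0.65 TPM in Nup210+/+, and Ndc80 was at 0.21, 0.05, 0.15 and 0.16 TPM and at 0.26, 2.49, 0.14 and 0.49 TPM. The kinetochore motor Cenpe stayed at or below 0.83 TPM in all libraries.

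Relative to the median of the other libraries, the high library was 4.77 times as high for the median gene of replication licensing and helicase and 4.38 times for nucleotide supply, against 6.44 to 24.8 times in the 6 groups of cell division genes. Mcm7, a subunit of the replicative helicase, was at 6.82, 5.89, 7.30 and 5.80 TPM in Nup210-/- and at 8.65, 16.99, 7.85 and 5.20 TPM in Nup210+/+. Mcm6 was at 2.09, 1.98, 1.65 and 2.46 TPM in Nup210-/- and at 3.09, 19.31, 2.79 and 2.77 TPM in Nup210+/+, where each Nup210+/+ value as deposited was above each Nup210-/- value, while on scaled TPM the genotypes overlapped. The log2 fold change of Mcm6 was -0.88 ± 0.50 (SE, limma adjusted p = 0.44, exact permutation p = 0.0571) and was -0.29 ± 0.14 without the high library (limma adjusted p = 0.42). Mcm3 gave similar values, with -0.73 ± 0.35 and -0.32 ± 0.14 (SE), and neither passed (limma adjusted p = 0.39 and 0.40). For Mcm2 and Mcm4 the estimate was lower with all libraries and about 0 without the high one. Mcm2 was at 3.60, 4.42, 3.25 and 3.59 TPM in Nup210-/- and at 4.54, 8.19, 3.70 and 3.31 TPM in Nup210+/+. Mcm4 was at 2.44, 2.97, 2.38 and 2.29 TPM in Nup210-/- and at 2.46, 7.34, 3.44 and 2.16 TPM in Nup210+/+. Mcm5 stood out by its low level in the other libraries, at most 0.61 TPM against 7.36 TPM, within a ring in which each of these Mcm proteins is a subunit. Cdc45, the helicase cofactor, reached 6.64 TPM against at most 2.67 TPM. The licensing factors Cdt1 and Cdc6 reached 2.77 and 1.80 TPM, and Cdc6 was at 0.14, 0.16, 0.05 and 0.37 TPM in Nup210-/- and at 0.36, 0.21 and 0.31 TPM in the other Nup210+/+ libraries.

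Pcna, the sliding clamp of DNA polymerases that also serves in DNA repair, was the member with the highest level and with the largest difference in TPM. It was at 21.22, 24.04, 22.10 and 25.06 TPM in Nup210-/- and at 25.49, 49.12, 26.07 and 24.73 TPM in Nup210+/+ (means 23.1 ± 1.76 and 31.4 ± 11.9 TPM, SD, n = 4 each). The log2 fold change was -0.27 ± 0.20 (SE, limma adjusted p = 0.56) and -0.04 ± 0.08 without the high library. For nucleotide supply, the members split by their baseline. Rrm1, the large subunit of ribonucleotide reductase, was at 17.19, 16.15, 17.83 and 15.93 TPM in Nup210-/- and at 17.91, 23.52, 20.63 and 16.63 TPM in Nup210+/+. Rrm2, the small subunit made in S phase, was at 0.63, 0.76, 0.60 and 0.43 TPM in Nup210-/- and at 0.73, 10.29, 0.80 and 1.36 TPM in Nup210+/+. The high library was thus 1.37 times the median of the others for Rrm1 and 14.1 times for Rrm2. Tyms, thymidylate synthase, was at 0.66, 1.3, 1.4 and 0.85 TPM in Nup210-/- and at 1.21, 7.61, 0.45 and 1.08 TPM in Nup210+/+. Tk1, thymidine kinase, was at 8.14, 6.29, 7.69 and 8.24 TPM in Nup210-/- and at 6.11, 12.37, 7 and 7.26 TPM in Nup210+/+. Without the high library the estimates for Tyms and Tk1 were higher in Nup210-/-, by 0.14 and 0.22 on the log2 scale, and neither passed the test.

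The transcription factors were low in all libraries. E2f1, an activator of replication genes, was at 0.30, 0.48, 0.60 and 0.34 TPM in Nup210-/- and at 0.63, 1.34, 0.92 and 0.57 TPM in Nup210+/+, with 1 Nup210+/+ library inside the Nup210-/- range. Its log2 fold change was -0.33 ± 0.16 (SE, limma adjusted p = 0.39, exact permutation p = 0.0571) and -0.22 without the high library. Foxm1, an activator of mitotic genes, was at 0.12, 0.16, 0.20 and 0.03 TPM in Nup210-/- and at 0.34, 0.89, 0.09 and 0.22 TPM in Nup210+/+.

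The difference between Nup210+/+ replicate 2 and the median of the other libraries was between 0.28 TPM (Cenpf) and 24.39 TPM (Pcna), with a median of 4.59 TPM. After Pcna it was largest for Cdk1 (17.08 TPM), Mcm6 (16.85 TPM), Top2a (10.96 TPM) and Mcm7 (10.17 TPM), which belong to mitosis and to replication alike. Baselines were more uneven. In the other 7 libraries the median was below 0.5 TPM for 20 members, between 0.5 and 5 TPM for 13, and at least 5 TPM for 6 (Pcna, Rrm1, Ube2c, Tk1, Mcm7 and Aurka). The ratio was lower where the baseline was higher (Spearman's rho = -0.67 over 39 genes, which share libraries, and where the baseline is also the denominator).

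**Figure D5:**
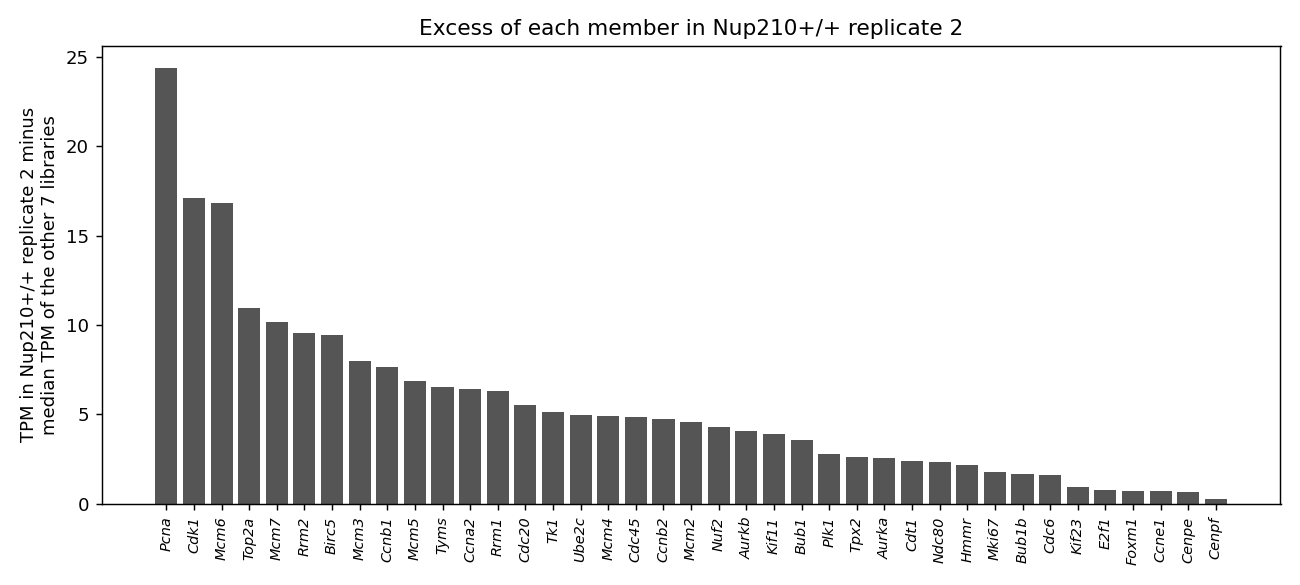
TPM of each member in Nup210+/+ replicate 2 minus the median TPM of the other 7 libraries, in order of size, 1 bar per gene from 0. The difference runs from 24.39 TPM for Pcna to 0.28 TPM for Cenpf.

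Of 145 other cell cycle genes in 5 lists, 119 were tested and 0 passed (limma, adjusted p below 0.05). In the mitosis list, 47 of 52 genes were highest in Nup210+/+ replicate 2 and 40 were over 2 times every other library. In the DNA replication list it was 35 and 14 of 50. The median log2 fold change was -0.35 over 34 tested mitosis genes and -0.17 over 45 tested DNA replication genes. Without the high library both were 0.02, over the 26 and 42 genes that then reached the minimum. The genes lost had reached it only through that library, so the medians with and without it are not of the same genes. Cks2, a small subunit of cyclin-dependent kinases, had the largest estimate of the lists (-1.39), with 0.79, 0.65, 0.47 and 0.25 TPM in Nup210-/- and 1.64, 25.92, 0.83 and 1.23 TPM in Nup210+/+. Genotypes did not overlap for 2 mitosis genes, both lower in Nup210-/- (Nusap1 and Cks1b), and for 3 replication genes, of which Lig1 and Top1 were lower and Rpa1 higher. This was 2 of 34 and 2 of 45 tested genes lower, against 4.60% of all genes, and 1 of 45 higher, against 4.78%.

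The list labelled G1 cyclins, kinases and phosphatase holds no phosphatase gene, but also Mnat1, Myc and Skp2. In Nup210+/+ replicate 2, 4 of its 12 genes were over 2 times every other library. The median log2 fold change was -0.31 over 12 genes with that library and -0.14 over 11 genes without it. Of the 12 tested genes of this list, 2 did not overlap between genotypes, both lower in Nup210-/- (4.60% of all genes were). They were Ccnd1 and Ccnd2, D-type cyclins, which link growth signals to the cycle, while the third D-type cyclin, Ccnd3, did overlap (7.73 to 11.55 TPM in Nup210-/- and 9.26 to 15.91 TPM in Nup210+/+). Ccnd2 was at 4.69, 5.05, 4.73 and 4.04 TPM in Nup210-/- and at 6.57, 7.46, 8.44 and 5.73 TPM in Nup210+/+, with a log2 fold change of -0.43 ± 0.09 (SE, limma adjusted p = 0.12). Ccnd1 was at 4.86, 4.88, 5.02 and 4.15 TPM in Nup210-/- and at 7.57, 5.52, 6.75 and 5.87 TPM in Nup210+/+, with a log2 fold change of -0.29. The high library lay among the other Nup210+/+ libraries for Ccnd2 and was the lowest of them for Ccnd1. Myc, the growth-promoting factor, was at 3.50, 4.69, 4.72 and 3.13 TPM in Nup210-/- and at 9.65, 14.32, 7.36 and 3.59 TPM in Nup210+/+, with 1 Nup210+/+ library inside the Nup210-/- range.

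Among 16 brakes of the cycle (inhibitors of cyclin-dependent kinases, pocket proteins and growth arrest genes), 15 were tested, the median log2 fold change was 0.03, and the high library did not stand out (241.17 TPM against 230.86 to 283.13 TPM). Rbl2, the pocket protein of the DREAM complex in resting cells, and Gadd45a, a growth arrest gene, did not overlap and were higher in Nup210-/- (2 of 15, against 4.78% of all genes), with log2 fold changes of 0.25 and 0.32, neither past the threshold. Gadd45g, a relative of Gadd45a, had the largest estimate of the list (0.79), with 64.62, 57.27, 75.31 and 59.58 TPM in Nup210-/- and 61.42, 29.47, 37.82 and 34.06 TPM in Nup210+/+, where Nup210+/+ replicate 1 lay within the Nup210-/- range. In the list of E2F, DREAM and B-Myb factors, 13 of 15 were tested, none were without overlap, and the median log2 fold change was 0.06. Myb, a factor of blood progenitors, was at 16.74 TPM in Nup210+/+ replicate 2 and at most 0.25 TPM in the other 7 libraries.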

How the data were processed

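Quadriceps RNA of 8 mice (4 per genotype, 1 library each) was measured. Per the labels and methods, the authors selected polyadenylated RNA, made directional single-end libraries, trimmed reads with cutadapt (2.3), aligned them to mm10 with STAR (2.7.0d) and quantified Ensembl genes with RSEM (1.3.1). The authors deposited TPM with 2 decimals, which sum to 1000000 per library, so depth is unknown and no counting interval can be given. TPM are relative, so a gene that takes more of a library lowers the others. Their test on estimated counts was not repeated.

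TPM were scaled by the median of ratios over 15225 genes above 0 in all libraries (factors 0.936 to 1.12), a pseudocount of 1 was added, and limma 3.58.1 (R 4.3.3, lmFit, eBayes with trend, Benjamini-Hochberg adjustment) was run on genes averaging 0.5 TPM or more. The pipeline was tested on simulated data. Libraries were unlike each other, at most 201 tested genes having equal TPM in any pair. Each mouse is a separate animal. Alternatives were other pseudocounts, filters, scalings, variance settings, library weights, a replicate block and each library left out.

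The members and lists were chosen with earlier results of these data known. Values per library are given for members without overlap of genotypes, those with the 2 highest and the lowest mean of a group (all of a group of 4 or fewer may be given), and those whose sign changes when a library is left out, and for the extreme and non-overlapping genes of other lists. Values of Mcm6 among libraries, Mcm3, Elane, Pax7, Tfrc, Lck, Cd4 and Ccnd3 were named after they were seen. Promoters were limited to stretches that reach at most 30 bases into an annotated gene. Places are from GENCODE M21 (GRCm38). Python 3.11.15 and matplotlib 3.10.9 were used for the figures.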

Additional observations from a re-analysis of the deposited data

Results flagged for a closer look

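Of 128 groups of 4 libraries examined (each member, and each sum over a group of members or a list, in each genotype), 38 held a library whose gap to the nearest of the others, as a share of the whole range of the group, was above the Dixon limit for 4 samples. Chance gives about 1 in 20 for a single group of normally distributed values. The groups here come from the same libraries, and the sums over members hold the same genes as the single members. They are therefore not independent, and 38 of 128 cannot be set against that rate. In 34 of the 38 the library was Nup210+/+ replicate 2, on the high side, and 22 of these were members.

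Among mitotic members the share of the range was 0.974 for Top2a, 0.942 for Cdk1, 0.836 for Ccna2, 0.97 for Ccnb1, 0.873 for Ccnb2, 0.898 for Cdc20, 0.959 for Aurkb and 0.925 for Plk1. For the checkpoint, spindle and kinetochore genes it was 0.969 for Bub1, 0.873 for Bub1b, 0.951 for Birc5, 0.894 for Hmmr, 0.898 for Nuf2, 0.851 for Ndc80 and 0.921 for Kif11. For replication it was 0.851 for Mcm3, 0.977 for Mcm5, 0.981 for Mcm6, 0.906 for Cdc6, 0.945 for Pcna, 0.934 for Rrm2 and 0.894 for Tyms.

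The sums with Nup210+/+ replicate 2 high were those of all members (0.945), of Mki67 with Top2a (0.968), cyclins and their kinase (0.972), mitotic kinases and passenger complex (0.884), spindle proteins (0.836), kinetochore (0.935), replication licensing and helicase (0.893), nucleotide supply (0.895), transcription factors (0.847) and the list of other mitosis genes (0.878). Granulocyte precursor genes (0.995) and maturing and mature granulocyte genes (0.87) were high in the same library. The other 4 were in Nup210-/-: Aurkb was high in replicate 1 (0.832), Mcm3 was high in replicate 4 (0.949), the licensing and helicase sum was high in replicate 2 (0.871), and the sum of other DNA replication genes was low in replicate 4 (0.842).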

How the results depend on the processing

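Under 19 alternatives, 8 of which left out a library, the 30 tested members gave 551 values, of which 534 kept the sign and 0 passed an adjusted p of 0.05 (lowest 0.14, Aurka without Nup210+/+ replicate 2, limma). Among all genes, 16 passed, but 1 with any TPM above 0, 0 at a mean TPM of 0.1, 27 at a mean TPM of 1, 0 with upper-quartile scaling, 0 without the trend, 84 with library weights and 0 to 10 with any of the 8 libraries left out (10 without Nup210+/+ replicate 4). Tested members without overlap of genotypes (1) were 3 with any TPM above 0, 3 at a mean TPM of 0.1, 2 with TPM as deposited, 2 with upper-quartile scaling and 1 to 6 with a library left out (6 without Nup210-/- replicate 4 or Nup210+/+ replicate 1, 4 without Nup210-/- replicate 2 or Nup210+/+ replicate 3, 3 without Nup210-/- replicate 3, 2 without Nup210-/- replicate 1 or Nup210+/+ replicate 4). Among all genes the share without overlap was 4.60% lower and 4.78% higher with all libraries. It rose to 6.56% and 6.54% without Nup210+/+ replicate 2. For the other settings no such share is given, so their counts cannot be read as a result about the members. Of the 30 tested members, 11 were tested because of Nup210+/+ replicate 2. Signs turned for Bub1b with a pseudocount of 0.1 (0.049) and library weights (0.098), Tk1 (-0.058) and Tpx2 (-0.028) with TPM as deposited, and Ube2c with library weights (0.027). Leaving out a library turned Cdk1 (-1.20 to 0.14), Tyms (-0.71 to 0.14), Mcm4 (-0.42 to 0.016), Mcm2 (-0.31 to 0.037), Ube2c (-0.12 to 0.034), Tpx2 (-0.15 to 0.29) and Tk1 (-0.079 to 0.22), and moved the median of the members between -0.68 and -0.04. The replicate block gave 0 calls among all genes. Same-numbered libraries correlated at -0.03, 0.01, 0.02 and 0.09, so the numbers do not pair the mice. The cause was not tested for any of these. Depth is unknown, so for members near 0 TPM a difference below the spread of 4 libraries was not detectable.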

Other observations

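Among the 7 libraries other than Nup210+/+ replicate 2, the highest TPM of a member was in Nup210+/+ replicate 3 for 15 members, in replicates 1 and 4 for 8 each, and in Nup210-/- replicates 1 to 4 for 2, 2, 3 and 2 (ties counted). The largest and smallest estimates of the other lists, none past the threshold (limma), were Cdc25a (0.24) in mitosis, Uhrf1 (-0.74) and Pole (0.23) in DNA replication, Myc (-0.76) and Cdk7 (0.04) among the G1 genes, Rbl1 (-0.43) among the brakes, and Myb (-0.91) and Lin37 (0.27) among the factors. Uhrf1, which recruits DNA methylation to newly copied DNA, was at 4.25 TPM in Nup210+/+ replicate 2 and at most 0.49 TPM elsewhere.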
